A study of Mus musculus with 136 samples.

Results

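The genes described here carry mouse symbols made of Zfp and a number, the largest numbered set of zinc finger protein genes in the mouse. Members were chosen by their unstimulated level: the Zfp genes whose mean was at least 0.3 RPKM (reads per kilobase of gene and per 1e6 reads) over 4 libraries, the unstimulated wild-type cells of the Nfkbiz and the Bcl3 series. The rule kept 139 of the 229 Zfp genes among the 15196 genes measured. The values that chose them ran from 0.308 to 8.35 RPKM with a median of 0.837, against a median of 1.33 RPKM for the 6465 other genes past the same line. Zfp455 (0.308), Zfp296 (0.315) and Zfp273 (0.317 RPKM) lay just inside the line, and Zfp422 (0.287), Zfp874a (0.287) and Zfp456 (0.286 RPKM) just outside it.

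RNA bound to chromatin, most of it still being transcribed, was sequenced in 113 libraries of macrophages that had been raised from mouse bone marrow with 8% M-CSF over 6 days, and polyA RNA in 23 libraries. In the chromatin RNA, cells labelled Nfkb1-/- and Nfkbid-/- (3 replicates each) and Nfkbiz-/- and Bcl3-/- (2 each) were followed beside wild types of their own series through 0, 0.5, 1, 2 and 6 h of lipid A, the part of endotoxin that activates TLR4. Series with 1 library per condition gave lipid A after an ERK inhibitor or DMSO at 0, 15, 30 and 60 min, and TNFa at the same times as the lipid A course, in chromatin and in polyA RNA. PolyA RNA at 2 h and 0 h of lipid A came from the wild-type mRNA series, from macrophages overexpressing IkBz and their control, and from macrophages labelled J2, either wild type, Nfkb1-/- or Nfkb1-/- Nfkb2-/-. The wild-type background in the labels is C57/B16, the 4 knockouts are named as mouse genotypes, and the labels tie no library to an animal, so the p-values measure the spread between libraries.

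Most Zfp proteins carry arrays of C2H2 zinc fingers, loops that each hold a zinc ion and read a few bases of DNA. In many of them a KRAB domain recruits the corepressor Trim28, which brings histone deacetylase and methyltransferase complexes and silences mobile elements and other targets. Zfp36, Zfp36l1 and Zfp36l2 are different: their CCCH fingers bind AU-rich elements in messenger RNA and bring in the CCR4-NOT deadenylase, and Zfp36 (tristetraprolin) limits the mRNA of cytokines such as Tnf in macrophages.

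Depth in the chromatin libraries was 7.86 to 45.3 in units of 1e6 reads. The shallowest were those numbered 1 in the Nfkb1 series (7.86 to 16.2) and the TNFa library at 2 h (11.5). A member had a median of 152 reads per library, with 13.4% of member values resting on under 30 reads. Of the macrophage markers, 5 were measured, and they summed to 31.7 to 78.7 RPKM in unstimulated wild-type cells, while none of 6 lists for other blood and stromal cells summed above 0.649 RPKM at 0, 0.5 or 6 h. Replicate 1 of the Nfkbid series held 6.92 to 19.4 RPKM of the nuclear RNA Malat1, against 872 to 2648 RPKM in the wild types used, and was left out of the main fits. The targeted transcripts do not check the knockout labels: Nfkb1 RNA spanned 0.703 to 21.3 RPKM in libraries labelled Nfkb1-/- and 1.33 to 24.02 RPKM in wild type, Bcl3 RNA spanned 8.79 to 40.9 RPKM in those labelled Bcl3-/- and 2.20 to 18.1 RPKM in wild type. The Nfkbiz and Nfkbid transcripts are not analysed here. In bulk RNA, fewer cells of a type and less RNA per cell cannot be told apart.

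By sequence pattern, 123 of the 138 members with a reading frame had at least 3 C2H2 fingers, with a median of 11 over all of them and a highest count of 33. A KRAB box pattern was found in 71, of which 70 also had the array. No C2H2 finger was found in 5: the 3 genes of the Zfp36 family, Zfp750 and Zfp839. The members sit in clusters, with 36 on chromosome 7 (25.9%, against 9.73% of all genes), 22 on chromosome 17 and 14 on chromosome 13. Another Zfp gene was the next gene of the table for 69 members (49.6%), against 2.56% of all genes. Their spans had a median of 15495 bases, against 14196 for the other genes past the line. Of the members, 9 overlap another gene of the table, so that reads there may belong to either. Among these are Zfp516 (with 4930592I03Rik) and Zfp646 (with Prss53), both named below.

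Lipid A was tested in 5 wild-type lines of the Nfkb1 and Nfkbid series, whose libraries had no part in choosing the members. Such a wild-type line is the set of libraries of 1 series with the same replicate number. The labels do not say whether these libraries come from 1 culture, and the main fit had no term for the replicate number. Members had passed the line at 0 h, whereas any gene was tested if its mean over all times passed a filter. All genes tested thus include genes that are low at 0 h and rise later, a kind that the member rule leaves out. How much of the difference between members and all genes comes from that rule was not tested, as the other genes past the line were not compared. Within 0.5 h it lowered the chromatin RNA of 58 of the 94 members tested (61.7%, where 34.7% of all 5755 genes tested were lower) and raised that of 3 (6.32% of all genes). The median member changed by -1.27 on the log2(RPKM + 0.1) scale, and the median of all genes by -0.68. A gene was called at an adjusted p under 0.05 in limma and at least 2-fold, and the added 0.1 makes differences of low genes smaller than their ratios. The filter on the mean over all times kept 94 members; the other 45 fell below it, and without a filter 96 of all 139 were lower at 0.5 h (69.1%, against 17.3% of all 15196 genes, a set that includes genes with little or no signal). The share called depended on the pseudocount: with 1 in place of 0.1, 3.19% of members and 6.17% of all genes were lower at 0.5 h. On that scale a gene below 1 RPKM at 0 h cannot fall 2-fold, so these shares cannot show whether the excess holds among low genes. The medians there were -0.57 for members and -0.36 for all genes. With 0.1 added and a mean of at least 1 RPKM, 12 of 23 members were lower (52.2%, against 24.1% of all genes).

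The excess over other genes narrowed with time. At 1 h 51 members were lower and 2 higher (32.4% and 6.85% of all genes), with medians of -1.09 for members and -0.58 for all genes. At 2 h 32 were lower and 3 higher (28.3% and 10.3% of all genes), with medians of -0.74 and -0.51. At 6 h 27 were lower and 2 higher (27% and 8.81% of all genes), close to the background, with medians of -0.70 and -0.50. Over the whole course 75 members were lower at 1 or more times (79.8%, against 56.3% of all genes), 4 were higher (15.7% of all genes) and 16 were called at no time (17%, against 30.9% of all genes). The choice of members by their unstimulated level bears on these comparisons too.

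RPKM are shares of each library, and most genes lay lower after lipid A. With each library centred on its median gene, 28 members were lower and 5 higher at 0.5 h, against 9.87% and 13.4% of all genes, and the median member lay at -0.48. Centred counts were 21 lower and 4 higher at 1 h, 9 and 4 at 2 h, and 8 and 3 at 6 h, where 12.1%, 13.1% and 11.9% of all genes were lower. The excess of lower members at 0.5 h and 1 h was present on both scales, and that at 2 and 6 h was not. Centring does not remove the effect of choosing members by their unstimulated level.

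**Figure D1:**
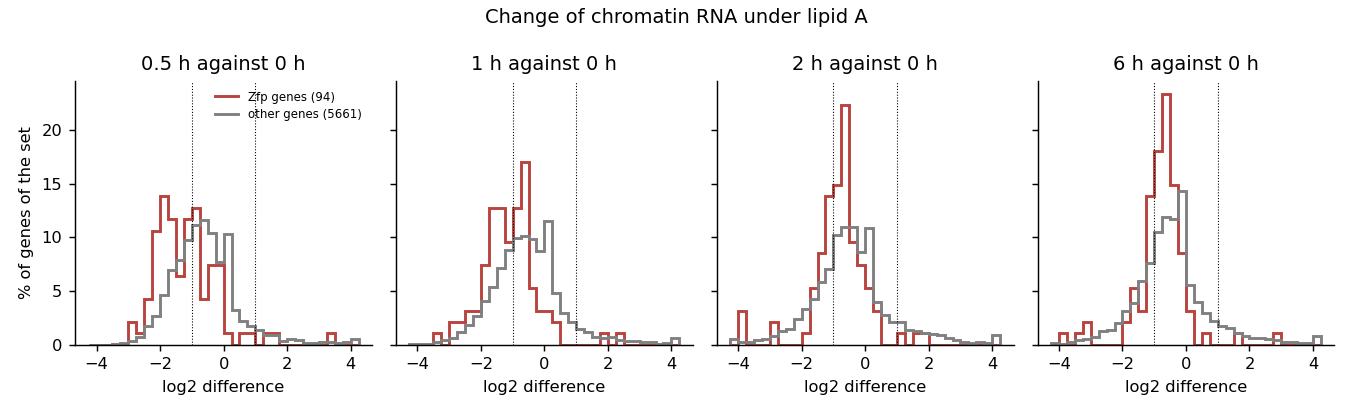
Share of genes (vertical axis, % of each set) by log2 difference in chromatin RNA (horizontal axis, bins of 0.25) at each time of lipid A against 0 h, for the 94 Zfp genes tested and the other genes tested. Dotted lines mark 2-fold. The Zfp genes lie to the left of the others at 0.5 h (median -1.27) and come closer by 6 h (median -0.70).

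Among the members that fell at 0.5 h, 4 of the 5 with the most negative differences carry C2H2 arrays, and the other is Zfp36l2. That is near the share among all 94 members tested, of which 36 carry an array with a match to the KRAB pattern and 43 an array without one. Zfp961, a KRAB gene on chromosome 8, had 0.0256, 0.0422, 0.0867, 0.0542 and 0.0562 RPKM at 0.5 h, against 0.736, 1.05, 1.10, 1.15 and 1.08 RPKM at 0 h. No library at 0.5 h came near any at 0 h, and the log2 difference was -2.88 ± 0.23 (SE, adjusted p = 3.7e-10). Zfp3, whose frame holds 13 C2H2 fingers and no KRAB pattern, had 0.0698, 0.0269, 0.0458, 0.0457 and 0.0247 RPKM at 0.5 h, against 0.789, 0.816, 1.25, 0.969 and 0.737 RPKM at 0 h (log2 difference -2.81 ± 0.20, adjusted p = 1.0e-10). The KRAB gene Zfp472 averaged 0.115 ± 0.0531 RPKM at 0.5 h and 1.18 ± 0.121 RPKM at 0 h (SD, n = 5 each), and Zfp526, with 13 fingers and no KRAB pattern, had log2 differences of -2.37 ± 0.21 at 0.5 h and -1.69 ± 0.21 at 1 h.

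What these members did next differed. Zfp961 averaged 1.12 RPKM at 2 h, as high as at 0 h (log2 difference 0.06 ± 0.23, adjusted p = 0.86), and was lower again at 6 h (-1.34 ± 0.23), a call lost after centring. Zfp3 climbed back in steps, with log2 differences from 0 h of -2.61 at 1 h, -1.64 at 2 h and -0.80 at 6 h. Zfp472 remained lower at all 4 times, at -1.69 ± 0.19 by 6 h. Zfp319, a 12-finger gene, dropped to 0.308 to 0.426 RPKM at 0.5 h, against 1.24 to 1.75 RPKM at 0 h, and then passed its starting level, with 2.88 to 4.0 RPKM at 2 h (log2 difference 1.11 ± 0.27, adjusted p = 0.0011). Its drop at 0.5 h (-1.76 ± 0.27) was not called after centring.

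Members lower at 0.5 h took different courses afterwards, in shares near those of all genes lower at that time. Of the 58, 39 were not called lower at 6 h (67.2%, against 61.7% of the 1995 genes lower at 0.5 h) and 18 were lower at 0.5 h alone (31.0% and 29.4%). By the same test 23 of the 58 were higher at 6 h than at 0.5 h (39.7% and 36.6%). Over all 94 members tested, 23 were higher at 6 h than at 0.5 h (19.7% of all genes) and 5 were lower (13.4%), and with a pseudocount of 0.5 the count higher was 3. In the wild types of the Nfkbiz and Bcl3 series, with only their stimulated libraries fitted, 31 of 86 members were higher at 6 h than at 0.5 h (24.7% of all genes) and 6 lower (11.9%). The 21 members called higher in the first lines and tested in the second were called higher there too, and so were the 5 called lower. The share of all genes called again in this way was not computed, so the repeat is not a result particular to the members. At all 4 times 15 members were lower (16%, against 9.47% of all genes), and 17 were not lower at 0.5 h but fell later (18.1% and 21.7%).

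**Figure D2:**
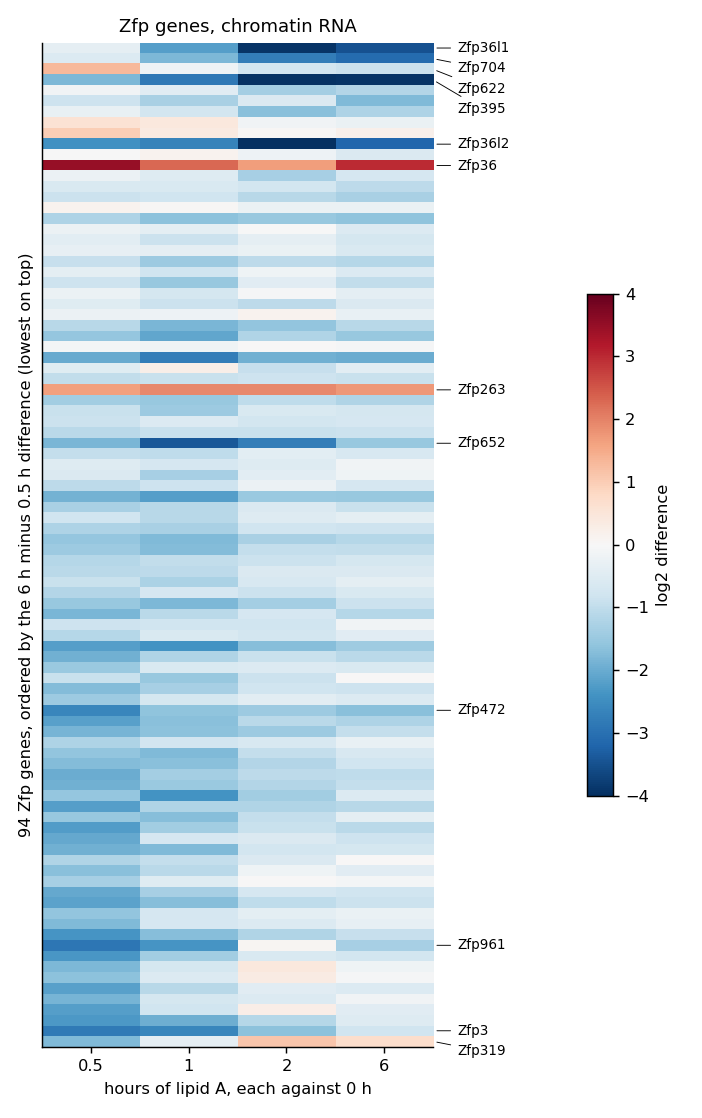
Log2 difference in chromatin RNA from 0 h at each time of lipid A (columns) for the 94 Zfp genes tested (rows), averaged over 5 wild-type lines and ordered by the 6 h minus 0.5 h difference. Blue is lower and red higher than at 0 h. Rows at the bottom, such as Zfp3, Zfp961 and Zfp319, are deepest at 0.5 h, and rows at the top, such as Zfp36l1, Zfp704 and Zfp395, are deepest at 2 or 6 h.

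Other members stayed low or sank late. Zfp395, a DNA-binding protein with 1 C2H2 pattern whose human form binds the huntingtin gene promoter, had 2.44 ± 0.801 RPKM at 0 h, 0.626 ± 0.216 at 0.5 h, 0.251 ± 0.0946 at 1 h, 0.0583 ± 0.0203 at 2 h and 0.0611 ± 0.0249 RPKM at 6 h (SD, n = 5), log2 differences of -3.96 ± 0.23 at 2 h and -3.94 ± 0.23 at 6 h. Zfp704, its relative by sequence, was not called at 0.5 h (-0.56 ± 0.34, adjusted p = 0.16) and lay at -2.78 ± 0.34 at 2 h and -3.07 ± 0.34 at 6 h. Zfp652, a C2H2 repressor, reached its lowest level at 1 h, with 0.0493 to 0.125 RPKM, against 1.48 to 2.62 RPKM at 0 h (-3.38 ± 0.19). Zfp362, with 7 fingers, was lower by 2.76 ± 0.17 on the log2 scale at 1 h and by 1.98 ± 0.17 at 6 h. Each of these 4 genes was also called lower at 2 h after centring.

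The Zfp36 family split. Zfp36 had 28.3, 55.1, 68.5, 71.3 and 70.5 RPKM at 0.5 h, against 2.02, 4.61, 5.43, 5.99 and 8.68 RPKM at 0 h, so that every stimulated library lay above every unstimulated one (log2 difference 3.50 ± 0.39, adjusted p = 5.2e-08). It receded to 8.95 to 24.9 RPKM at 2 h and stood at 20.7 to 64.0 RPKM at 6 h (2.98 ± 0.39), higher at all 4 times. Zfp36l2 went the other way at once, with 1.20, 0.559, 0.416, 0.847 and 1.06 RPKM at 0.5 h, against 3.40, 5.12, 3.79, 4.56 and 6.41 RPKM at 0 h (-2.42 ± 0.25), and lay lowest at 2 h, with 0.0851 to 0.374 RPKM (-3.97 ± 0.25, adjusted p = 4.8e-12). Zfp36l1 followed later. At 0.5 h its 1.05 to 6.54 RPKM overlapped the 2.34 to 5.20 RPKM of 0 h (-0.35 ± 0.49, adjusted p = 0.58), and at 2 h it had 0.0651 to 0.247 RPKM (-3.93 ± 0.49, adjusted p = 3.8e-07).

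Zfp263, the member with the highest value at 0 h, was the other gene higher at all 4 times. Its 9 C2H2 fingers bind DNA. It had 22.5, 38.9, 19.8, 30.5 and 29.5 RPKM at 0.5 h, against 8.89, 8.47, 8.50, 7.96 and 10.1 RPKM at 0 h, with no overlap, and its log2 difference stayed between 1.64 and 1.92 at the 4 times (SE 0.22). Zfp622, whose yeast relative Rei1 acts in maturation of the large ribosomal subunit, was higher at 0.5 h alone, with 2.14 to 4.52 RPKM, against 0.984 to 1.53 RPKM at 0 h (1.29 ± 0.23), and lay lower at 6 h than at 0.5 h (-2.15 ± 0.23). Of the 5 members with the highest 0 h values, Zfp646 was lower at all 4 times, by 1.01 to 1.52 on the log2 scale, and was not called after centring.

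**Figure D3:**
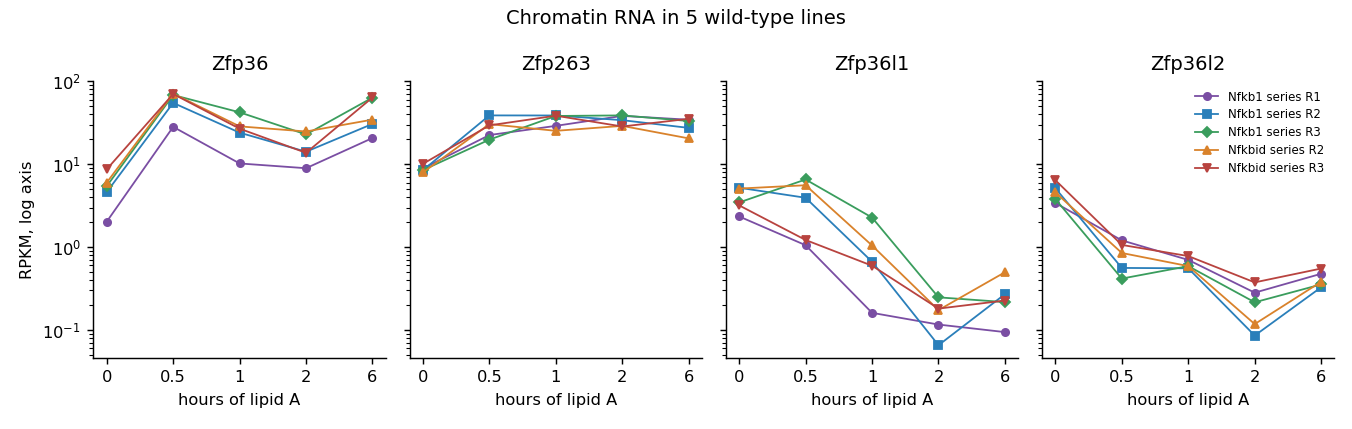
Chromatin RNA (vertical axis, RPKM, log axis) of Zfp36, Zfp263, Zfp36l1 and Zfp36l2 in each of 5 wild-type lines (1 line and marker each) at 0, 0.5, 1, 2 and 6 h of lipid A. A drawn line joins libraries of 1 series with the same replicate number. Zfp36 reaches 28.3 to 71.3 RPKM at 0.5 h, Zfp36l2 is lower in all 5 lines from 0.5 h, and Zfp36l1 is lower from 1 h.

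The bases upstream of the start of 4 members with contrasting courses are shown because the genes of early rise and early loss can be compared there, as the RefSeq windows give them for GRCm38.p6, a build other than that of the values. Each run holds the 250 bases before the annotated start, 5′ to 3′ on the strand of the gene. Capitals mark matches on either strand to the ETS-type core CCGGAAG, the CRE-type core TGACG, the CCAAT box, the GC box GGGCGGG, the AP-1 site TGANTCA, the TATA box TATAAA, the NRF1 palindrome, the CArG box and the NF-kB consensus; in Zfp36l1 the TATAAA and a reverse CCAAT overlap by 1 base. Zfp36 and Zfp36l1 lie on the minus strand (chr7:28379229-28379478 and chr12:80113014-80113263), and Zfp263 and Zfp961 on the plus strand (chr16:3743849-3744098 and chr8:71950816-71951065).
Zfp36: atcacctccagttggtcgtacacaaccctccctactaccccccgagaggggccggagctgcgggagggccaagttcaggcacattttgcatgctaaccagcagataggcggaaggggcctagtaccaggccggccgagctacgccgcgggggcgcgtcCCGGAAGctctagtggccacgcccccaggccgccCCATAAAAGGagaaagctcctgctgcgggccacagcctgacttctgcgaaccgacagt
Zfp36l1: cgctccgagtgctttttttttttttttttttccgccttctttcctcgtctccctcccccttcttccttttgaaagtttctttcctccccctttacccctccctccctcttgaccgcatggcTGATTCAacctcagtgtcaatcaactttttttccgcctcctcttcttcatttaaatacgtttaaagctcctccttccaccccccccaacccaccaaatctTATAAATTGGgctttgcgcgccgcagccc
Zfp263: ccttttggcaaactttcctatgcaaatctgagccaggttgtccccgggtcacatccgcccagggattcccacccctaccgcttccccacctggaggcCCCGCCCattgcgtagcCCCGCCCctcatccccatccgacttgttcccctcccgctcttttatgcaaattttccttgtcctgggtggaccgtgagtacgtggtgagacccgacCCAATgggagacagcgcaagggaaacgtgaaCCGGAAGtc
Zfp961: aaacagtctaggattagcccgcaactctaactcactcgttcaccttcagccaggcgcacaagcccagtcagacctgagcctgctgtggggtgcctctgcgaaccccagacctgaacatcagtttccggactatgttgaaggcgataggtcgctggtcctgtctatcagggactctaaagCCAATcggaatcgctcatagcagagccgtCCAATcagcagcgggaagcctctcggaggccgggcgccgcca

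Zfp36 holds a CArG box, the letters that serum response factor binds, 58 bases before its start and CCGGAAG 92 bases before it. Zfp263 holds CCGGAAG 9 bases before its start, and Zfp961 holds CCAAT at 71 and 42 bases before its start. Windows were found for 114 of the 139 members, among them none for Zfp36l2, Zfp395, Zfp362 and Zfp704. CCAAT was in 49.2% of the 120 member windows, against 37.0% of those of other genes past the line and 33.8% of all 32851 windows. CCGGAAG was in 19.2% of them, against 17% and 6.91% of those sets in the same order, TGACG in 31.7%, against 28.8% and 17.8%, and the NRF1 palindrome in 2.5%, against 1.77% and 0.782%. GGGCGGG was in 30.0%, against 44.9% and 23.4%, TATAAA in 7.5%, against 6.14% and 12.4%, and TGANTCA in 4.17%, against 4.21% and 6.75%. The CArG box was in 1.67%, against 1.09% and 1.47%, and the NF-kB consensus in 9.17%, against 8.72% and 7.25%. The windows held a median of 12 CpG for members, 17 for other genes past the line and 6 for all. Such matches are letters in a window and no measure of binding.

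Among the members themselves, protein type and position went with modest differences, given as descriptions. At 0.5 h, 23 of 36 members with an array and a match to the KRAB pattern were lower. So were 29 of 43 with an array and no match, and 6 of 15 with under 3 fingers. At 2 h the counts were 11, 12 and 9. A missing match does not show that a protein lacks a KRAB domain. The median difference between 6 h and 0.5 h was 0.84 for the 43 members next to another Zfp gene and 0.21 for the 51 that were not. Gene span showed little relation with the change at 0.5 h (Pearson r = 0.04 over 94 genes, which share libraries and are not independent).

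Cofactors of the KRAB proteins and listed genes of mRNA binding and decay moved in both directions. Of 18 listed cofactors of KRAB proteins, 8 were measured, and 3 were lower and 1 higher at 0.5 h, where 34.7% and 6.32% of all genes were. The counts were 5 and 0 at 1 h (32.4% and 6.85% of all genes), 3 and 1 at 2 h (28.3% and 10.3%), and 3 and 1 at 6 h (27% and 8.81%). Cbx3, a heterochromatin protein, had 0.115 RPKM on average at 0.5 h, against 1.34 RPKM at 0 h (-2.75 ± 0.24), and the corepressor Trim28 was lower at 1 h (-1.39 ± 0.54) and at 6 h (-1.84 ± 0.54). Morc3, an ATPase of silenced chromatin, and the deacetylase Hdac2 were lower at 0.5 h (-1.70 ± 0.39 and -1.17 ± 0.16), and the remodeler Chd4 was higher (1.30 ± 0.23). Hdac1 was higher at 2 h (1.71 ± 0.26), and Atf7ip, a partner of the methyltransferase Setdb1, and the remodeler Chd3 were lower (-1.40 ± 0.22 and -1.57 ± 0.19). Of 13 listed AU-rich element binders, CCR4-NOT subunits and Zc3h12 genes 4 were measured. At 0.5 h the endonuclease Zc3h12a was higher (1.29 ± 0.23), the CCR4-NOT subunit Cnot3 lower (-1.43 ± 0.20), and neither Elavl1 nor Khsrp was called.

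The drop at the start was also seen on a finer time scale, with 1 library per condition and no test. Here and for TNFa in chromatin RNA, 2-fold was counted on the log2(RPKM + 0.1) scale. After DMSO, 21.7% of 115 members were at least 2-fold lower at 15 min of lipid A than at 0 min (14.2% of all genes), 70.6% of 102 at 30 min (43.8%) and 52.5% of 99 at 60 min (29.6%). After the ERK inhibitor, a drug that blocks the MAP kinases ERK1 and ERK2, the shares were 27.2% of 114, 73% of 100 and 57% of 100, where 13.4%, 46.1% and 36.3% of all genes were that much lower. Zfp36 had 9.10, 69.3, 66.1 and 25.4 RPKM at 0, 15, 30 and 60 min after DMSO, and 10.8, 69.2, 62.9 and 26.8 RPKM after the inhibitor. Zfp961 had 0.731, 0.420, 0.0355 and 0.0875 RPKM after DMSO, and 0.886, 0.344, 0.0318 and 0.0667 RPKM after the inhibitor. Between inhibitor and DMSO none of the members compared differed 2-fold on the log2(RPKM + 0.1) scale at 0, 15 or 30 min (124, 88 and 42 members). Of all genes, 1.06%, 1.94% and 3.04% were that much lower and 0.497%, 1.17% and 1.75% higher. At 60 min 2 of 60 were lower with the inhibitor (5.73% of all genes), and these were Zfp658 (0.214 RPKM with the inhibitor, 0.735 RPKM with DMSO) and Zfp516 (1.901 RPKM with the inhibitor, 4.28 RPKM with DMSO), named after their values were seen. In raw RPKM Zfp658 differed more than 2-fold at 0 min too, with 0.160 RPKM with the inhibitor and 0.376 RPKM with DMSO. At 30 min, where it was not among the 42 compared, it had 0.0803 RPKM with the inhibitor and 0.286 RPKM with DMSO.

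TNFa, the cytokine that signals through its own receptors, was followed in a chromatin series with 1 library per time. At 0.5 h 17 of 121 members were at least 2-fold lower than at 0 h (14%, against 9.1% of all genes). The median log2 difference at 0.5 h was -0.21 for members, close to the -0.18 of all genes. At 1 h 0 of 124 members were 2-fold lower (2.48% of all genes), at 2 h 3 of 126 (2.85%) and at 6 h 2 of 129 (3.06%). Zfp961 had 1.09 RPKM at 0 h, 0.195 at 0.5 h and 1.01 at 1 h of TNFa. Zfp36 had 3.65, 15.4, 4.22, 4.71 and 4.38 RPKM at 0, 0.5, 1, 2 and 6 h, and Zfp263 had 5.65, 19.0, 10.02, 12.7 and 11.8 RPKM. The difference between the stimuli was not tested, since TNFa has 1 library per time.

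In polyA RNA 7 of 133 members were lower at 2 h of lipid A than at 0 h over 7 pairs of libraries (3.56% of all 7276 genes) and 2 were higher (4.82%). Zfp36l2 had 15.3, 3.47, 5.50, 6.32, 11.6, 19.9 and 17.5 RPKM at 2 h, against 112, 51.4, 56.2, 47.7, 40.3, 53.1 and 44.5 RPKM at 0 h, for the mRNA series, the control, the IkBz overexpressing cells and the J2 wild type, Nfkb1-/- and 2 double knockout pairs in turn. All 2 h values lay below all 0 h values (log2(RPKM + 0.5) difference -2.44 ± 0.30, adjusted p = 0.00032). Zfp395 was lower by 2.38 ± 0.22, Zfp652 by 1.52 ± 0.12, Zfp36l1 by 1.44 ± 0.19, Zfp362 by 1.36 ± 0.14, Zfp608 by 1.14 ± 0.17 and Zfp810 by 1.09 ± 0.15, each in 7 of 7 pairs.

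The 2 members higher in polyA RNA were those higher throughout in chromatin. Zfp36 had 234, 146, 89.2, 88.8, 70.7, 39.2 and 36.5 RPKM at 2 h, against 40.5, 26.4, 47.0, 26.6, 52.4, 31.0 and 25.5 RPKM at 0 h (1.27 ± 0.30, adjusted p = 0.0070), higher within each pair although the groups overlapped. Zfp263 differed by 1.22 ± 0.18 and was also higher in 7 of 7 pairs. Over the 93 members tested in both kinds of RNA, 32 were lower in chromatin at 2 h, and 5 of these were lower in polyA RNA as well (15.6%, against 10.9% of the 1585 genes of that kind). The polyA difference at 2 h correlated with the chromatin difference at 0.5 h with Pearson r = 0.49, at 1 h with r = 0.81, at 2 h with r = 0.89 and at 6 h with r = 0.86. By Spearman's rho the values were 0.42, 0.81, 0.72 and 0.67 at 0.5, 1, 2 and 6 h. These are descriptions over genes that share libraries.

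**Figure D4:**
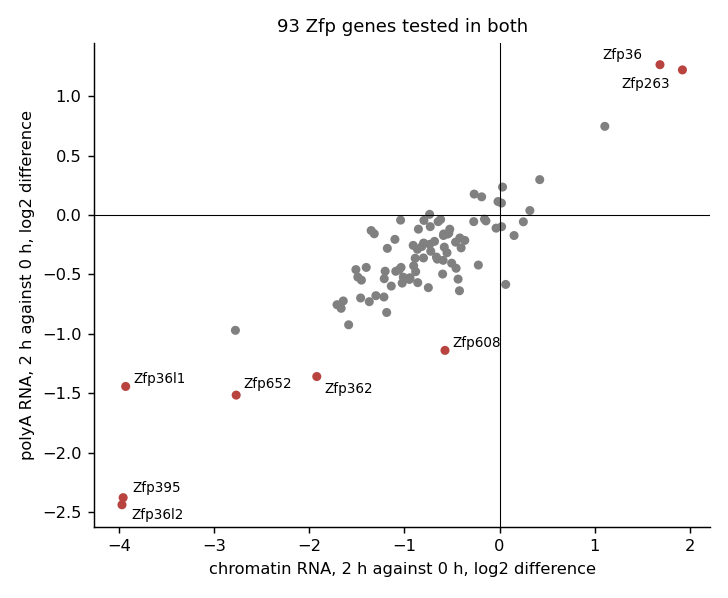
PolyA RNA difference at 2 h of lipid A against 0 h over 7 pairs (vertical axis, log2(RPKM + 0.5) scale) against the chromatin difference over 5 wild-type lines (horizontal axis, log2(RPKM + 0.1) scale) for 93 Zfp genes. Red points passed the test in polyA RNA. Zfp36 and Zfp263 lie at the upper right and Zfp36l2, Zfp395 and Zfp36l1 at the lower left.

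The size of the polyA change differed with the cells for 4 of 133 members, in which the 4 J2 pairs were less reduced than the 3 other pairs (1.57% of all genes differed that way), and for none in the other direction (1.17%). Zfp36l2 changed by -1.82 in J2 pairs and by -3.26 in the other pairs (difference 1.44 ± 0.38, adjusted p = 0.043), and Zfp395 by -1.93 and -2.98 (1.06 ± 0.29, adjusted p = 0.049). By pair, Zfp36l2 changed by -1.76 in J2 cells labelled with lost Nfkb1, by -1.39 and -1.32 in those with lost Nfkb1 and Nfkb2, and by -2.82 in J2 wild-type cells, against -2.83, -3.71 and -3.24 in the other pairs. The J2 wild-type pair thus lay at the edge of the other pairs for this gene. For Zfp395 the J2 wild-type pair changed by -1.81, outside the other pairs' range of -3.35 to -2.50. With 1 J2 wild-type pair, the shares of the J2 label and the genotype were not tested.

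The wild-type mRNA series followed the mRNA over the whole course, with 1 library per time and no test. At 0.5 h of lipid A 1 of 121 members was at least 2-fold lower than at 0 h (2.57% of all genes). At 1 h 40 of 114 were (35.1%, against 5.72% of all genes), at 2 h 28 of 119 (23.5%, against 10.1%) and at 6 h 36 of 119 (30.3%, against 30.5%). Zfp3 mRNA had 1.21, 0.676, 0.122, 0.548 and 0.563 RPKM at 0, 0.5, 1, 2 and 6 h, lowest 1 step after its chromatin RNA. Zfp36 mRNA had 40.5, 1266, 1292, 234 and 475 RPKM. Zfp36l2 mRNA had 112, 197, 98.8, 15.3 and 10.5 RPKM and Zfp36l1 mRNA 12.3, 32.1, 25.4, 4.36 and 1.68 RPKM, both high at 0.5 h and low from 2 h. After TNFa, set against the same 0 h library, 0 of 122 members were 2-fold lower at 0.5 h (2.36% of all genes), 3 of 120 at 1 h (3.35%), 0 of 124 at 2 h (3.29%) and 7 of 125 at 6 h (14.7%).

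Among the knockouts, cells labelled Nfkbiz-/- had 7 of 110 members changed at a stimulated time (6.36%, where 10.1% of all 6138 genes were changed), all at 6 h, where 4 were lower (7.14% of all genes at 6 h) and 3 higher (2.12%). None was called at 1 h, where 0.424% of all genes were lower and 0.0815% higher, at 2 h (1.37% and 0.244%) or at 0.5 h (0% both ways), although 11, 10 and 1 members had an unadjusted p under 0.05 in limma at 1, 2 and 0.5 h (10%, 9.09% and 0.909%, against 11.2%, 15.0% and 5.15% of all genes). Zfp719 had 0.168 and 0.195 RPKM in Nfkbiz-/- cells, against 0.919 and 0.662 RPKM in wild type (log2 difference -1.65 ± 0.20, adjusted p = 0.00017). Zfp658 had 0.0712 and 0.116 RPKM in Nfkbiz-/- cells, against 0.413 and 0.365 RPKM in wild type (-1.35 ± 0.15, adjusted p = 0.00011). Both are KRAB genes with arrays, of 13 and 21 fingers. Zfp52, a further KRAB gene, had 0.437 and 0.371 RPKM in Nfkbiz-/- cells and 1.05 and 0.898 RPKM in wild type (-1.09 ± 0.28). Zfp369 differed by -1.02 ± 0.24. Most genes lay lower in Nfkbiz-/- cells at 6 h, with medians of -0.31 for all genes and -0.33 for members. Zfp52 and Zfp369 passed the 2-fold line by less than this shift. With each library centred on its median gene, 6 members were changed at a stimulated time in place of 7. At 0 h Zfp719 had 0.796 and 0.708 RPKM in Nfkbiz-/- cells, against 1.03 and 0.795 RPKM in wild type, and Zfp658 had 0.883 and 0.843 RPKM, against 0.902 and 0.958 RPKM, values that were part of choosing the members and are given as a description.

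The 3 members higher in Nfkbiz-/- cells at 6 h included both family members that lipid A lowers. Zfp36l1 had 1.54 and 0.786 RPKM in Nfkbiz-/- cells, against 0.268 and 0.264 RPKM in wild type (1.72 ± 0.27, adjusted p = 0.0011), and Zfp36l2 had 2.61 and 1.71 RPKM, against 1.09 and 0.403 RPKM (1.52 ± 0.39, adjusted p = 0.018). Zfp516, a C2H2 factor known in mouse for activating brown fat genes, had 7.06 and 5.94 RPKM in Nfkbiz-/- cells, against 2.92 and 2.90 RPKM in wild type (1.13 ± 0.20). Its reads may belong in part to the gene that it overlaps. Zfp36 had 52.6 and 54.9 RPKM in Nfkbiz-/- cells, against 81.7 and 48.4 RPKM in wild type, and was not called (adjusted p = 0.59). The groups of 2 did not overlap for any of the 7, a separation that the call itself favours and that is no further test. With 1 of the 4 libraries of a time course left out, 1 library remains in a group. Zfp658 then differed by -1.18 to -1.51 and Zfp719 by -1.44 to -1.86 on the log2 scale. The calls of Zfp516, Zfp36l1, Zfp52, Zfp369 and Zfp36l2 were each lost in 1 or more of these fits. The share of members called was lowest and highest in the same fits as the share of all genes called. Its range is thus not a result particular to the members.

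In the Nfkb1 series 1 of 86 members was changed in cells labelled Nfkb1-/- (1.16%, where 0.997% of all 5414 genes were changed). It was lower at 2 h (0.425% of all genes), while 0.0369% of all genes were lower at 0.5 h, 0.462% lower and 0.0554% higher at 1 h, and 0.129% lower and 0.185% higher at 6 h. Zfp961 had 0.112, 0.290 and 0.401 RPKM at 2 h in Nfkb1-/- cells, against 0.568, 1.14 and 1.20 RPKM in wild type (-1.57 ± 0.33, adjusted p = 0.022), the time at which its RNA is back in wild type. The call was lost without knockout replicate 1 or 2 or wild-type replicate 2 or 3. Same-numbered libraries of this series varied together, and with the replicate number as a block 4 members were called (4.65%, against 3.9% of all genes), Zfp961 with Zfp36, Zfp658 and Zfp719. Zfp36 at 6 h had 2.29, 11.5 and 14.5 RPKM in Nfkb1-/- cells, against 20.7, 30.7 and 63.8 RPKM in wild type, a log2 difference of -2.22 (adjusted p = 3.9e-05 with the block and 0.41 without it). Zfp658 at 6 h had 0.0524, 0.0980 and 0.102 RPKM in Nfkb1-/- cells, against 0.531, 0.340 and 0.794 RPKM in wild type (-1.78, adjusted p = 0.00061 with the block and 0.17 without it). Zfp719 at 6 h had 0.170, 0.265 and 0.186 RPKM in Nfkb1-/- cells, against 0.636, 0.628 and 1.00 RPKM in wild type (-1.46, adjusted p = 0.0016 with the block and 0.44 without it). In these 3 cases, picked by the call with the block, the groups did not overlap, which is no further test.

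**Figure D5:**
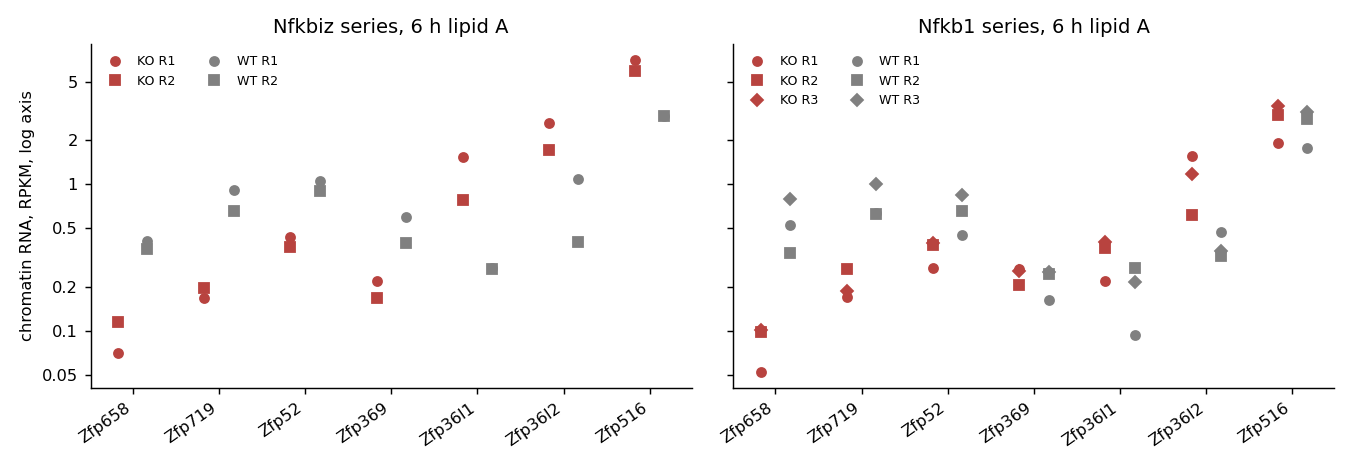
Chromatin RNA (vertical axis, RPKM, log axis) at 6 h of lipid A for the 7 Zfp genes called in the Nfkbiz series, in each knockout library (red, left of each pair) and wild-type library (grey) of the Nfkbiz series (2 replicates) and of the Nfkb1 series (3 replicates). Zfp658 and Zfp719 lie lower in the knockouts of both series, with no overlap.

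Zfp658 and Zfp719 are neighbours on chromosome 7 (mm9 chr7:50817739-50830831 and chr7:50834955-50849080), with no gene of the table between them. Their 250 bases before the start are shown because both were lower at 6 h in 2 knockout series, passing in the Nfkb1 series with the replicate block alone (GRCm38.p6, plus strand, chr7:43562120-43562369 and chr7:43579336-43579585, capitals as above). Each holds the NRF1 palindrome, 198 bases before the start of Zfp658 and 55 before that of Zfp719, and neither holds the NF-kB consensus in this window.
Zfp658: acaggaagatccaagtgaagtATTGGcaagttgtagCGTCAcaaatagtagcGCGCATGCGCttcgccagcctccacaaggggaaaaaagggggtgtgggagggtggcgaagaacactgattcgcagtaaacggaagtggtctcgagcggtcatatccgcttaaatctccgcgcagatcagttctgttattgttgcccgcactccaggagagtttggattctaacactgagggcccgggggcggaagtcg
Zfp719: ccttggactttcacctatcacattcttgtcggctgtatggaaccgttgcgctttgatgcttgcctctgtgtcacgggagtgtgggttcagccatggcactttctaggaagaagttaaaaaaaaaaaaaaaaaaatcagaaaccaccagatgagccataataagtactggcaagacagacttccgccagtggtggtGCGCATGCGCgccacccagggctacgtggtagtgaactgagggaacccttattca

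Neither gene was called under lipid A in the wild types at any time, although Zfp719 was called higher at 0.5 and 1 h after centring. Zfp658 had log2 differences from 0 h between -0.91 and 0.23, and Zfp719 between 0.03 and 1.00. In polyA RNA of J2 cells at 2 h, with 1 library for Nfkb1-/- and for wild type, Zfp658 had 0.667 RPKM in Nfkb1-/- cells and 0.938 and 0.623 RPKM in the double knockout pairs, against 2.27 RPKM in wild type. At 0 h it had 1.73 RPKM in Nfkb1-/- cells and 1.59 in both double knockout pairs, against 2.38 RPKM in wild type. Zfp719 at 2 h had 2.23, 1.78 and 1.89 RPKM in the same order of knockouts, against 3.81 RPKM in wild type. These J2 values have no replicate of the wild type and no test. Near-identical C2H2 genes can share reads, and how the authors assigned such reads is not given in the sources used here.

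No member passed in cells labelled Bcl3-/- or Nfkbid-/- (0% of all genes in both). For Bcl3-/- 2 of 99 members had an unadjusted p under 0.05 in limma at 0.5 h (2.02%, against 1.71% of all genes) and none at 1, 2 or 6 h, and the largest difference was that of Zfp704 at 0.5 h (0.568 and 1.26 RPKM in Bcl3-/- cells, 1.71 and 1.36 RPKM in wild type, -0.78 ± 0.40). Without knockout replicate 2 of that series 25 of 92 members were called (27.2%, where 33.3% of all genes were called too), 21 of them at 0.5 h and all of them lower. For Nfkbid-/- 1 of 100 members had an unadjusted p under 0.05 at 6 h (0.649% of all genes) and none at 0.5, 1 or 2 h. The largest difference there was Zfp36l1 at 0.5 h, with 4.28 and 5.84 RPKM in Nfkbid-/- cells and 5.57 and 1.22 RPKM in wild type (0.90 ± 0.61).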

How the data were processed

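The authors deposited RPKM values for 15196 genes in 136 libraries; per the submitters' processing notes HISAT2, SAMtools and the mm9 build were used, with no versions and no counting rule. Reads behind chromatin values were recovered from the step between values, of which 94.6% to 98.7% were whole within 0.02 reads. The labels' extraction text describes chromatin for every library; the molecule label set the 23 polyA libraries apart.

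Members and gene lists were chosen with earlier results of these data known. The limma package (version 3.58.1, R 4.3.3; lmFit and eBayes with trend) modelled log2(RPKM + 0.1) of all genes with a mean of at least 0.3 RPKM, with the series as a term for lipid A (25 libraries) and 1 mean per genotype and time for each knockout series; p-values were adjusted by Benjamini-Hochberg over all genes per contrast. PolyA RNA used log2(RPKM + 0.5), a filter of 0.5 RPKM and the pair as a term. In ratios of 2 mRNA libraries, genes with equal values in both were left out, since genes without reads share a floor. The fit was tested on simulated data. Genes named in the text are the Zfp36 family, up to 5 lowest and 5 highest called per time, up to 6 called per knockout series and up to 4 each way in polyA RNA, the 5 highest at 0 h, those at the line and the called cofactors; other names were added after their values were seen.

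Replicate numbers were checked for pairing by the residual correlation of same-numbered knockout and wild-type libraries, which was at least 0.63 (highest 0.91) for Nfkb1, 0.46 (0.72) for Nfkbiz, 0.21 (0.72) for Bcl3 and 0.63 (0.92) for Nfkbid. Over 50 pairs of wild-type lipid A libraries the same check gave 0.12 to 0.77. Every pair lay over 0.1, a hint of pairing from the data and not from the labels. The knockout counts and p-values in the text come from fits without this pairing, except where the replicate block is named. The block was run as an alternative. Finger and KRAB patterns were counted in the longest reading frames of GENCODE protein-coding transcripts, in place of the RefSeq proteins planned. No column of the table was left unused (0), and no 2 libraries were identical (0).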

Additional observations from a re-analysis of the deposited data

Results flagged for a closer look

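In 76 groups of 5 wild-type libraries or 7 polyA pairs, 1 sample stood apart from the others in 3 groups, where chance gives about 1 in 20. Zfp961 at 0 h had 0.736 RPKM in replicate 1 of the Nfkb1 series, the series' shallow replicate, and 1.05 to 1.15 RPKM in the other 4 lines. Zfp526 had 0.601 RPKM at 1 h and 0.842 RPKM at 6 h in replicate 3 of the Nfkbid series, against 0.185 to 0.229 RPKM and 0.404 to 0.520 RPKM in the other lines.

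The change in polyA RNA at 2 h of lipid A differed between the J2 pairs and the other pairs for 4 members in a test of the difference itself, chosen after seeing the data: Zfp36l2 (1.44), Zfp787 (1.14), Zfp395 (1.06) and Zfp251 (1.04 on the log2 scale). Zfp787 changed by -0.12 in J2 pairs and by -1.27 in the other pairs, and Zfp251 by -0.27 in J2 pairs and by -1.31 in the other pairs.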

How the results depend on the processing

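In the order lower at 0.5, 1, 2 and 6 h of lipid A, 58, 51, 32 and 27 members became 34, 23, 11 and 9 with a pseudocount of 0.5 (where 17.4%, 17.5%, 16.8% and 14.8% of all genes were lower). With a pseudocount of 1 they became 3, 9, 7 and 4 (3.19%, 9.57%, 7.45% and 4.26%, against 6.17%, 7.96%, 9.35% and 7.23% of all genes). On that scale a gene below 1 RPKM at 0 h cannot fall 2-fold, so these counts do not measure the excess among low genes. At a mean of 1 RPKM, 12, 7, 7 and 7 of 23 members were lower (24.1%, 22.7%, 23.3% and 20% of all genes). Without a filter 96 and 80 were lower at 0.5 and 1 h (17.3% and 17.2% of all genes). After centring 28, 21, 9 and 8 were lower (9.87%, 12.1%, 13.1% and 11.9% of all genes). Higher after centring were 5 and 4 at 0.5 and 1 h (13.4% and 15.1% of all genes). At 1.5-fold 58 and 57 were lower at 2 and 6 h. With Nfkbid replicate 1 the count higher at 2 h was 1 (7.43% of all genes). Lower and higher at 6 h than at 0.5 h (5 and 23) became 3 and 3 with a pseudocount of 0.5, 2 and 1 with 1, 2 and 4 at 1 RPKM, 10 and 42 at 1.5-fold, with 36 higher without a filter and 8 lower after centring; in the Nfkbiz and Bcl3 series (6 and 31) they became 3 and 5, 3 and 1, 2 and 6, with 10 lower at 1.5-fold, 50 higher without a filter, and 10 lower and 19 higher after centring. The Nfkbiz count of 7 became 3 and 0 with pseudocounts of 0.5 and 1, 3 at 1 RPKM and 19 at 1.5-fold, and the Nfkb1 count of 1 became 0 in each of the first 3 and 4 with the replicate block, which changed no other count past 1.5 times. In polyA RNA 7 lower members became 18 in the 3 pairs without the J2 label alone and 11 with a pseudocount of 0.1, and 2 higher became 0 in J2 pairs alone. Where no share of all genes is given, the counts do not show whether a move is particular to the members. The cause of these moves was not tested.

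Leaving out 1 line or library gave 55 to 62, 48 to 55, 28 to 35 and 26 to 29 members lower, 3 to 4, 2 to 2, 3 to 3 and 2 to 2 higher, 4 to 6 lower and 24 to 30 higher at 6 h than at 0.5 h, and 5 to 5 and 27 to 32 in the Nfkbiz and Bcl3 series. Knockout counts ranged from 3 to 12 (Nfkbiz), 0 to 1 (Nfkb1), 0 to 25 (Bcl3) and 0 to 0 (Nfkbid), a lone library being taken to vary like the other groups, and polyA counts from 6 to 8 lower and 2 to 2 higher. In all, 181 of the alternative values lay within 1.5 times of the count reported and 62 did not.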

Other observations

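Other zinc finger families, listed by symbol for comparison and without 3 opposite-strand genes whose symbols match, were lower at 0.5 h of lipid A in 15 of 32 genes tested (46.9%, where 34.7% of all genes were lower) and higher in 4 (12.5%, where 6.32% were). Among the lower ones were Zbtb1 (-2.37) and Zc3h12d (-2.10), and the higher ones were the Krueppel-like factors Klf7 (2.50) and Klf6 (2.36), Zbtb10 (2.15) and the endonuclease Zc3h12a (1.29), log2 differences of genes named after their values were seen. At 2 h 6 of the 32 were lower and 3 higher (18.8% and 9.38%, where 28.3% and 10.3% of all genes were), and at 6 h also 6 and 3 (27% and 8.81% of all genes).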
